A study of Homo sapiens with 24 samples.

Results

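The genes described here are 43 targets and partners of activating transcription factor 4 (ATF4): ATF4 itself with 7 other transcription factors, 3 stress effectors, 11 enzymes that make amino acids or one-carbon units, 7 amino acid transporters, 11 genes that charge or export tRNA, and 3 secreted factors or receptors. They were named with earlier results of these data known, and each gene is represented by its single-symbol probe set with the highest mean over all 24 arrays. A single-symbol probe set existed for 42 of the 43 genes, and all 42 were among the 18055 genes tested. MARS1, the methionyl-tRNA synthetase, lies only on probe sets that carry several gene symbols and has no value here. ALDH1L2 and VLDLR, with mean log2 levels of 5.05 and 4.83, sat near the log2 level of 5 that the filter asks for on at least 2 arrays.

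The cells were HCT116, an established human colorectal carcinoma line obtained from ATCC and kept in RPMI1640 with 5% fetal bovine serum. Every group was cultured for 72 h with a compound dissolved in dimethyl sulfoxide (DMSO) or with the solvent alone, and total RNA was hybridized to Affymetrix arrays. The 4 solvent arrays were compared with 10 treated groups of 2 arrays each: decitabine (DAC) at 5 µM and 120 nM, azacytidine (Aza) at 1500 nM and 150 nM, the prodrug G668684 (titled ester) at 7 µM and 150 nM, the prodrug G669043 (titled with the prefix Aza) at 1500 nM and 150 nM, and the prodrug G669071 (titled phos) at 2 doses. For G669071 the titles give 63 µM and 6 µM and the source names 120 nM and 6 nM, so only higher and lower dose are told apart here. DAC and Aza are nucleosides whose ring, once in DNA, holds DNA methyltransferases in a covalent complex; Aza also enters RNA. Nothing in the labels states whether replicates are separate cultures, and the p-values therefore cover only the variation among these arrays, possibly all of it technical. No structure is known here for the coded prodrugs.

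All 9 colon epithelial markers lay above the median probe set, as did 2 of 4 blood, 2 of 3 endothelial and 4 of 6 fibroblast markers found on the arrays; the part of the latter in the results was not tested. In extracts of whole cultures, fewer cells with a transcript and less of it per cell cannot be told apart. The DMSO arrays formed pairs, replicates 1 and 2 against replicates 3 and 4. The members' median was 0.13 log2 units higher in the second pair (27 of 42 above 0), while the median over all genes tested was -0.04, and the gaps reached 0.87 for PSPH, 0.76 for XPOT, 0.69 for PSAT1, 0.61 for VEGFA, 0.55 for CTH and 0.51 for JDP2. Of the 177 member calls against DMSO, 25 were not made against replicates 1 and 2 alone and 7 not against replicates 3 and 4 alone.

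ATF4 is a basic leucine zipper factor that cells make when the initiation factor eIF2 is phosphorylated under amino acid shortage, misfolded protein, heme shortage or double-stranded RNA, a program called the integrated stress response. Its protein rises mainly because upstream reading frames in its mRNA let the main frame be translated when eIF2 is limiting, so its mRNA level is only one layer of its control, and no protein was measured here. ATF4 pairs with C/EBP family members on composite C/EBP-ATF sites in the promoters of genes for amino acid synthesis, uptake and tRNA charging.

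The core of that composite site, TGATGNAA, was sought on both strands in RefSeq promoter windows of the assembly GRCh38.p14, from 250 bases before to 50 after each start. A match was found for 15 of the 35 listed genes that had a window (42.9%), against 481 of 14136 tested genes with one (3.4%). The cyclic AMP response element TGACGTCA, where the same letters cannot also match the first motif, matched 0 of the 35 and 3.2% of the tested genes. Genes with a match were AARS1, ASNS, ATF3, CARS1, CEBPG, CHAC1, GARS1, IARS1, JDP2, MARS1, NARS1, SLC1A4, SLC1A5, SLC3A2 and SLC7A1. The list was drawn from known ATF4 targets, so the share describes the list and is no independent evidence of binding. The stretches below belong to the 6 matched genes with the largest difference between Aza at 1500 nM and DMSO; they are printed 5′ to 3′ on the gene's strand, with the motif in capitals.
JDP2 (chr14:75427995-75428024, plus strand): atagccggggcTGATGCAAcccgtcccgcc
CHAC1 (chr15:40953251-40953280, plus strand): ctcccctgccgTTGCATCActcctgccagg
ASNS (chr7:97872458-97872487, minus strand): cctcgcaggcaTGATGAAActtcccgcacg
AARS1 (chr16:70289675-70289704, minus strand): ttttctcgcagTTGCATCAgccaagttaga
SLC3A2 (chr11:62881725-62881748, plus strand): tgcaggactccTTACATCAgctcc
NARS1 (chr18:57621804-57621833, minus strand): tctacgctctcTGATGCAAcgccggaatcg
In JDP2, ASNS and NARS1 the core reads along the gene's strand, and in CHAC1, AARS1 and SLC3A2 against it. The cores of SLC3A2 and NARS1 lie just after the annotated start and the others before it; the SLC3A2 stretch is shorter because the window ends there. In Aza at 1500 nM JDP2, CHAC1 and AARS1 fell and ASNS, SLC3A2 and NARS1 rose. The second JDP2 probe set stood at only -0.03 there. The calls of SLC3A2 and NARS1 were lost without single arrays, for SLC3A2 without Aza replicate 1 and for NARS1 without 1 of 4 arrays.

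Over the 10 comparisons with DMSO, 33 of the 42 genes passed the limma test (Benjamini-Hochberg adjusted p under 0.05 over all 18055 genes) in at least 1 treated group. Of these, 24 were lower wherever they passed, 6 were higher, and DDIT3, ASNS and SLC3A2 went both ways. The share of all genes that passed in at least 1 of the 10 comparisons was not counted, so these numbers only describe the members. Shares for each single comparison are given below. The 9 that passed nowhere were CEBPG, PSPH, ALDH1L2, SLC1A4, WARS1, EPRS1, IARS1, XPOT and VLDLR.

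At the higher doses of DAC, G669071 and G668684 at least 21 of the 42 members were lower. In DAC at 5 µM 5 members were higher and 24 lower, where 18.0% of all genes were called higher and 14.2% lower. The higher dose of G669071 gave 5 higher and 21 lower (15.8% and 13.7% of all genes), and G668684 at 7 µM 5 higher and 24 lower (17.5% and 14.7%). The members' medians were -0.33, -0.31 and -0.37 log2 units in these groups, beside -0.04, -0.03 and -0.04 over all genes. At the lower doses DAC at 120 nM gave 5 higher and 13 lower (12.5% and 9.9%), the lower dose of G669071 3 higher and 12 lower (8.68% and 6.91%), and G668684 at 150 nM 5 higher and 15 lower (10.7% and 10.4%). In these 6 groups the number of lower members stood above the share in all genes, while the number of higher members stood near or below it.

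In the Aza and G669043 groups the counts ranged from 0 to 20. Aza at 1500 nM gave 5 higher and 15 lower members (8.13% and 9.18% of all genes), with a member median of -0.08 beside 0.03 over all genes. G669043 at 1500 nM gave 3 higher and 12 lower (5.88% and 3.25%), and Aza at 150 nM 2 higher and 3 lower (1.03% and 0.46%). G669043 at 150 nM gave 0 of either kind by limma (0.709% and 0.161% of all genes), although 10 members had an unadjusted p under 0.05, all of them higher. Against DMSO replicates 1 and 2 alone this group gave 14 higher members, against replicates 3 and 4 alone 0, and without DMSO replicate 3 it gave 6. Shares of all genes were not counted for the unadjusted p or for fewer DMSO arrays, so these counts do not set the members apart from other genes.

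Many of the weaker calls rest on single arrays. In DAC at 5 µM 18 of the 24 lower calls were kept whichever array was left out, as were 16 of 21 in the higher dose of G669071, 21 of 24 in G668684 at 7 µM and 11 of 15 in Aza at 1500 nM. At the lower dose of G669071 the 15 calls became 8 without its replicate 1 and 9 without its replicate 2. The 20 calls of G668684 at 150 nM and the 20 of Aza at 1500 nM each became 13 without replicate 1 of the group. The 15 calls of G669043 at 1500 nM became 8 without its replicate 2, and the 5 of Aza at 150 nM became 3 without either of its arrays.

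**Figure D1:**
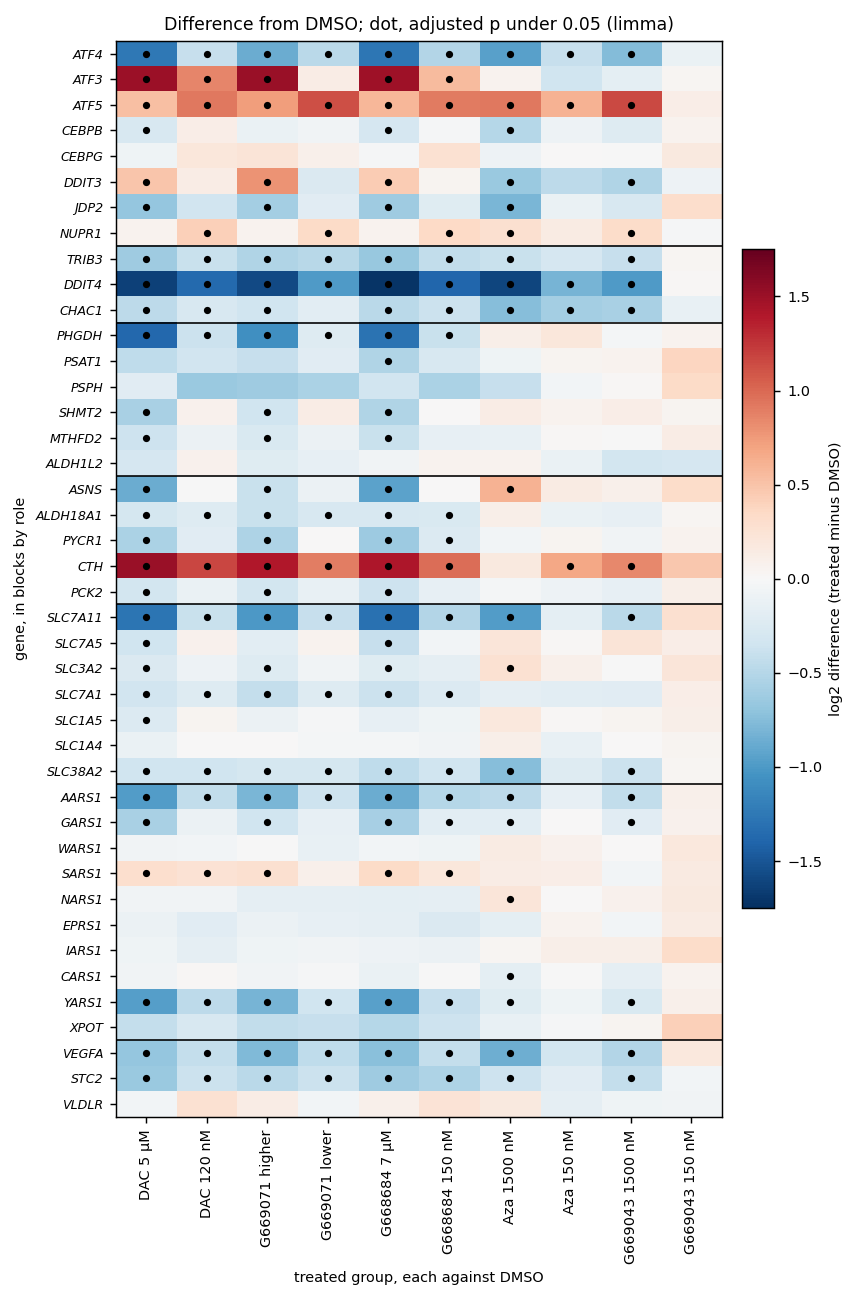
Log2 difference from DMSO for the 42 measured genes (vertical axis, in blocks by role) in the 10 treated groups (horizontal axis), with blue lower, red higher and a dot where the limma adjusted p is under 0.05. The ATF4 and DDIT4 lines are blue with a dot in 9 of 10 groups, the ATF5 line is red with a dot in 9, and the G669043 150 nM column holds no dot.

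ATF4 mRNA was lower in 9 of the 10 treated groups. Its log2 levels on the DMSO arrays were 12.44, 12.40, 12.69 and 12.62. DAC at 5 µM gave 11.22 and 11.36, G668684 at 7 µM 11.15 and 11.39, and the higher dose of G669071 11.60 and 11.73. Every array of these groups lay below every DMSO array, a fall of 1.25 ± 0.08 (SE; 2.37-fold; adjusted p = 2.1e-10) in DAC, 1.27 ± 0.08 (1.7e-10) in G668684 and 0.87 ± 0.08 (3.8e-08) in G669071. With Aza at 1500 nM it stood at 11.62 and 11.54, and with G669043 at 1500 nM at 11.81 and 11.75, falls of 0.96 ± 0.08 (adjusted p = 6.3e-08) and 0.76 ± 0.08 (1.9e-06). At the lower doses DAC gave 12.17 and 12.10, G669071 12.01 and 12.11, G668684 a mean of 12.02, and Aza 12.18 and 12.10, which lay 0.40 to 0.52 below DMSO. The call in Aza at 150 nM (adjusted p = 0.011) was lost without its replicate 1 (0.10) or its replicate 2 (0.27). G669043 at 150 nM, with 12.45 and 12.38, overlapped DMSO (-0.12 ± 0.08, adjusted p = 0.39).

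The factors that act beside or below ATF4 did not follow it in 1 direction. ATF3, an immediate early stress factor and repressor, measured 8.60, 8.54, 9.05 and 8.89 on the DMSO arrays. It stood at 10.14 and 10.39 in DAC at 5 µM, 10.28 and 10.27 in the higher dose of G669071, and 10.18 and 10.33 in G668684 at 7 µM. These groups did not overlap DMSO, and the rises were 1.50 ± 0.12 (adjusted p = 4.2e-09), 1.51 ± 0.12 (4.3e-09) and 1.49 ± 0.12 (4.8e-09). Of the 3 ATF3 probe sets, 2 had positive differences in DAC at 5 µM and 1 stood at -0.15. In Aza at 1500 nM ATF3, with 8.91 and 8.74, overlapped DMSO (0.06 ± 0.12, adjusted p = 0.82).

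ATF5, which is translated by the same reading-frame switch as ATF4 and drives the mitochondrial stress response, was higher in 9 groups. From 8.11, 8.25, 8.08 and 7.97 in DMSO it reached 9.15 and 9.36 in G669043 at 1500 nM (1.15 ± 0.09, adjusted p = 2.7e-08) and 9.22 and 9.25 in the lower dose of G669071 (1.13 ± 0.09, 1.5e-08). The arrays of Aza at 1500 nM gave 9.00 and 9.04 (0.92 ± 0.09, 4.9e-07). DAC at 5 µM gave 8.63 and 8.62 (0.52 ± 0.09, 8.7e-05), below the 9.15 and 8.89 of DAC at 120 nM. The call in DAC at 5 µM ended when the 4 ATF5 probe sets were averaged (0.20, adjusted p = 0.09).

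DDIT3, the pro-apoptotic factor CHOP, was higher in some compounds and lower in others. DMSO arrays measured 8.71, 8.66, 9.19 and 8.88. The higher dose of G669071 gave 9.56 and 9.72 (0.78 ± 0.12, adjusted p = 2.5e-05) and DAC at 5 µM 9.30 and 9.38 (0.48 ± 0.12, 0.0029), all above the solvent arrays. Levels in Aza at 1500 nM were 8.27 and 8.14 (-0.66 ± 0.12, 0.00046), both below them. The rise in G668684 at 7 µM (0.44 ± 0.12, 0.0056) was lost without its replicate 2 (adjusted p = 0.12), and the fall in G669043 at 1500 nM (-0.52 ± 0.12, 0.0066) without its replicate 2 (0.11).

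JDP2, a repressor that dimerizes with ATF3 and Jun factors, was lower in Aza at 1500 nM, at 7.72 and 7.67 against 8.19, 8.29, 8.79 and 8.70 in DMSO (-0.80 ± 0.13, adjusted p = 0.00019). It was also lower in DAC at 5 µM, the higher dose of G669071 and G668684 at 7 µM, by 0.67, 0.59 and 0.63. On the other of its 2 probe sets the differences were -0.21, -0.21 and -0.09 in these groups and -0.03 in Aza at 1500 nM. CEBPB, a partner of ATF4 on composite sites, was lower in Aza at 1500 nM, at 10.49 and 10.36 against 10.72 to 11.12 in DMSO (-0.50 ± 0.08, 0.00021). Its smaller falls in DAC at 5 µM (-0.28) and G668684 at 7 µM (-0.30) were lost without replicate 1 of the treated group (adjusted p = 0.11 and 0.13), and against DMSO replicates 1 and 2 alone they were -0.16 (0.082) and -0.18 (0.053). NUPR1, a small chromatin-binding stress protein, was higher by 0.29 to 0.41 in the lower doses of DAC, G669071 and G668684 and in Aza and G669043 at 1500 nM. Each of these NUPR1 calls was lost when some single array was left out, and its DMSO levels were 6.93 and 6.94 in replicates 1 and 2 and 6.72 and 6.62 in replicates 3 and 4, a gap of -0.27. Against replicates 1 and 2 alone 4 of the 5 NUPR1 calls ended (0.16 to 0.21, adjusted p = 0.12 to 0.32). CEBPG, the general partner of ATF4, passed nowhere, with differences from -0.10 to 0.27. Against DMSO replicates 1 and 2 alone it was higher in 4 groups (0.39 to 0.49). Against replicates 3 and 4 alone it was lower in 2 (-0.315 to -0.295).

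Each of the 3 stress effectors was lower in 8 or 9 groups. DDIT4, the stress-induced inhibitor of mTORC1 also called REDD1, measured 11.07, 11.22, 11.60 and 11.25 in DMSO. It fell to 9.50 and 9.65 in G668684 at 7 µM (-1.71 ± 0.11, adjusted p = 3.1e-10), 9.60 and 9.70 in DAC at 5 µM (-1.64 ± 0.11, 5.8e-10), 9.78 and 9.57 in Aza at 1500 nM (-1.61 ± 0.11, 4.4e-09), and 9.64 and 9.76 in the higher dose of G669071 (-1.59 ± 0.11, 1e-09). No other member fell as far against DMSO in any group. Low doses already lowered it, to 9.87 and 9.97 in DAC at 120 nM (-1.37 ± 0.11) and 10.47 and 10.48 in Aza at 150 nM (-0.81 ± 0.11, adjusted p = 0.00033). Only G669043 at 150 nM, with 11.41 and 11.19, overlapped DMSO (0.02 ± 0.11, 0.95). The only DDIT4 probe set can bind several transcripts.

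TRIB3, a pseudokinase that feeds back on ATF4 and CHOP, was lower in 8 groups. It measured 10.45, 10.57, 10.71 and 10.51 in DMSO and 9.88 and 9.91 in G668684 at 7 µM (-0.67 ± 0.08, adjusted p = 7.3e-07). DAC at 5 µM gave 9.95 and 9.93 (-0.62 ± 0.08, 1.8e-06), and Aza at 1500 nM 10.24 and 10.11 (-0.39 ± 0.08, 0.0011). No TRIB3 call against DMSO was lost when an array was left out. On the other of its 2 probe sets the differences were smaller. They were -0.270 in G668684 at 7 µM, -0.230 in DAC at 5 µM and -0.095 in Aza at 1500 nM. In the lower doses of G668684 and G669071 they were -0.070 and -0.075. CHAC1, which degrades glutathione, was lower in 8 groups and lowest in Aza at 1500 nM, at 7.33 and 7.48 against 8.08, 8.11, 8.43 and 8.0 in DMSO (-0.75 ± 0.09, 1e-05). Aza at 150 nM gave 7.54 and 7.57 (-0.60 ± 0.09, 0.00099) and DAC at 5 µM 7.70 and 7.69 (-0.46 ± 0.09, 0.0005). The CHAC1 call in DAC at 120 nM (-0.28, 0.032) was lost without DMSO replicate 3 (0.071), without DAC replicate 1 (0.13) or without DAC replicate 2 (0.12), that in the higher dose of G669071 without its replicate 2 (0.053), and that in G668684 at 150 nM without its replicate 1 (0.057).

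**Figure D2:**
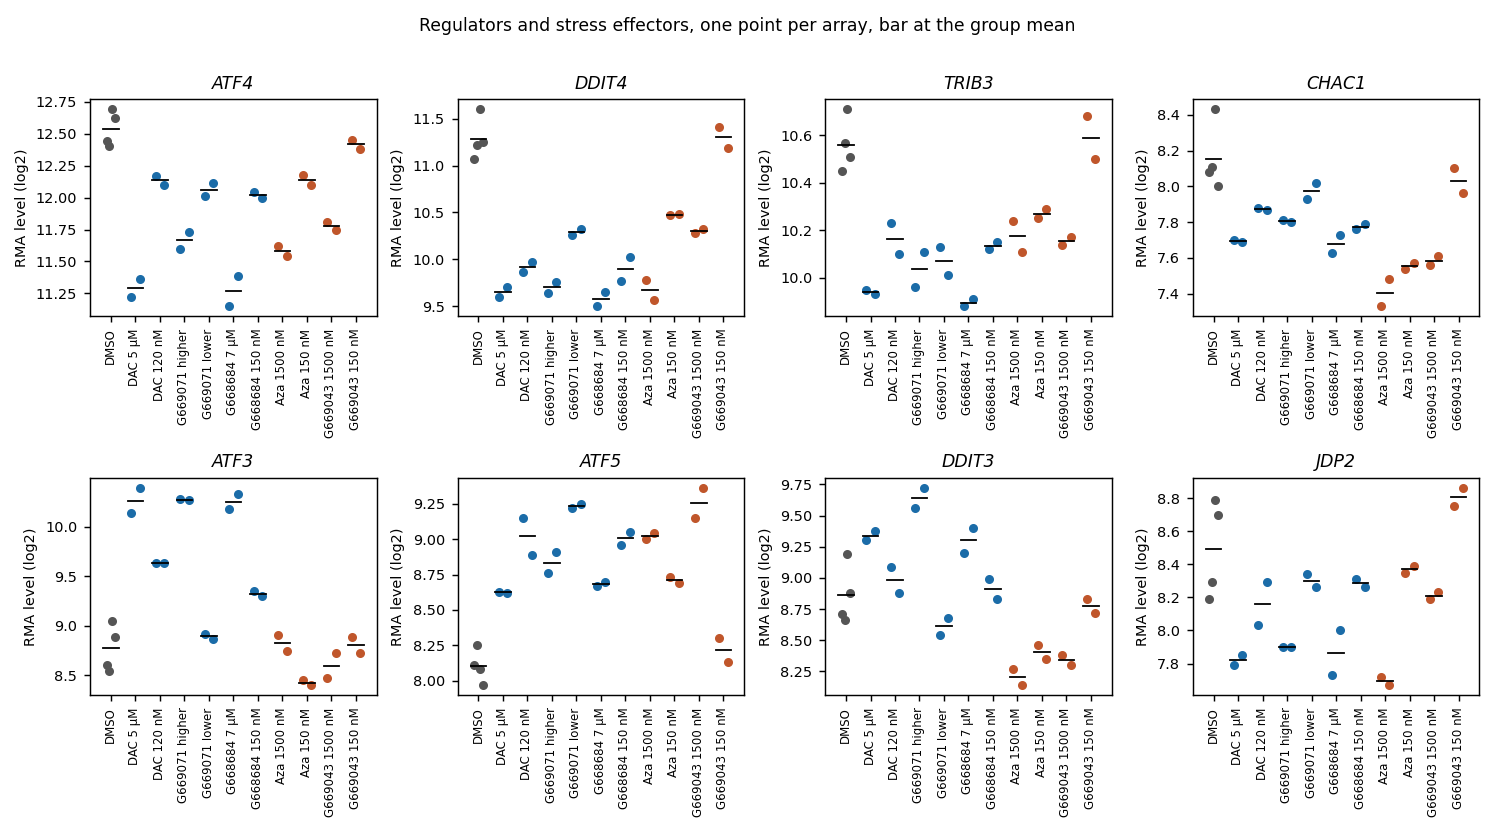
RMA log2 level (vertical axis) of 8 regulators and effectors on each array, by group (horizontal axis); grey points are DMSO, blue points DAC, G669071 and G668684, orange points Aza and G669043, and bars mark group means. ATF4 and DDIT4 lie below the DMSO arrays in all groups but G669043 at 150 nM, while ATF3 lies between 10.14 and 10.39 in the higher doses of the blue groups and overlaps DMSO in Aza at 1500 nM.

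Of the 6 enzymes that make serine, glycine and one-carbon units, 3 were lower at the higher doses of DAC and G669071 (14.2% and 13.7% of all genes). In G668684 at 7 µM 4 were lower (14.7%). At the lower doses of DAC, G669071 and G668684 1, PHGDH, was lower (9.9%, 6.91% and 10.4%). None passed in Aza or G669043, where at 1500 nM 9.18% and 3.25% of all genes were lower. PHGDH, the first enzyme of serine synthesis, measured 10.07, 10.10, 10.01 and 9.88 in DMSO. It fell to 8.62 and 8.67 in DAC at 5 µM (-1.37 ± 0.07; 2.58-fold; adjusted p = 2e-11), 8.73 and 8.71 in G668684 at 7 µM (-1.30 ± 0.07, 4.7e-11) and 8.95 and 8.93 in the higher dose of G669071 (-1.08 ± 0.07, 7.6e-10). With Aza at 1500 nM its levels, 10.19 and 10.04, overlapped DMSO (0.10 ± 0.07, 0.43). At low doses the falls were 0.37 in DAC and 0.39 in G668684. The call in the lower dose of G669071 (-0.22, 0.048) was lost without DMSO replicate 1, 2 or 3 or either treated array (adjusted p = 0.071 to 0.26).

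SHMT2, the mitochondrial serine hydroxymethyltransferase that splits serine into glycine and a one-carbon unit, fell from 11.73, 11.77, 11.65 and 11.54 in DMSO to 11.08 and 11.14 in DAC at 5 µM (-0.56 ± 0.06, adjusted p = 4.3e-07). G668684 at 7 µM gave 11.15 on both arrays (-0.52 ± 0.06, 1.2e-06) and the higher dose of G669071 11.29 and 11.36 (-0.35 ± 0.06, 0.00017). Its level did not pass at any lower dose. MTHFD2, the mitochondrial folate dehydrogenase, was lower by 0.36 in DAC at 5 µM, 0.27 in the higher dose of G669071 and 0.39 in G668684 at 7 µM. Those MTHFD2 calls were lost in DAC without replicate 2 (adjusted p = 0.051) and in G669071 without replicate 1 (0.078) or 2 (0.14) or against DMSO replicates 1 and 2 alone (-0.14, 0.16). PSAT1, the serine pathway aminotransferase, passed only in G668684 at 7 µM (-0.53 ± 0.17, 0.021). That call was lost without DMSO replicate 3 (0.056) or 4 (0.063) and without either treated array (0.069 and 0.16), and against DMSO replicates 1 and 2 alone the difference was -0.18 (0.23). PSPH, the last enzyme of the pathway, spanned 9.37 to 10.40 in DMSO and passed nowhere against all 4 arrays; against DMSO replicates 3 and 4 alone it was lower in 7 groups (-1.09 to -0.63).

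Among the other enzymes, ASNS and CTH had the largest differences. ASNS, which makes asparagine and is the model ATF4 target, measured 11.70, 11.79, 12.18 and 12.05 in DMSO. It fell to 11.01 and 11.11 in DAC at 5 µM (-0.87 ± 0.09, adjusted p = 3.6e-07), 10.96 and 11.04 in G668684 at 7 µM (-0.93 ± 0.09, 1.5e-07), and 11.54 and 11.55 in the higher dose of G669071 (-0.39 ± 0.09, 0.0032). In Aza at 1500 nM it rose to 12.55 and 12.53 (0.61 ± 0.09, 0.00011), above every solvent array. All 6 other groups gave differences of -0.10 to 0.33 that did not pass. The only ASNS probe set above the filter can bind several transcripts.

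CTH, the cystathionine gamma-lyase that makes cysteine from cystathionine, was higher in 8 groups. DMSO arrays measured 8.55, 8.70, 9.22 and 9.12. Levels were 10.30 and 10.51 in DAC at 5 µM (1.51 ± 0.15; 2.84-fold; adjusted p = 1.4e-07), 10.33 and 10.30 in G668684 at 7 µM (1.42 ± 0.15, 3.3e-07), and 10.29 and 10.32 in the higher dose of G669071 (1.41 ± 0.15, 4e-07). G669043 at 1500 nM gave 9.64 and 9.85 (0.85 ± 0.15, 0.001). The levels of Aza at 1500 nM, 9.20 and 8.95, overlapped DMSO (0.18 ± 0.15, 0.51; 0.45 and 0.017 against DMSO replicates 1 and 2 alone), while Aza at 150 nM gave 9.57 and 9.58 (0.68 ± 0.15, 0.026). The last call was lost without either of its arrays (adjusted p = 0.28 in both cases).

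Both genes of proline synthesis were lower in DAC, G669071 and G668684. PYCR1, which reduces pyrroline-5-carboxylate to proline, fell from 9.79 to 10.01 in DMSO to 9.37 and 9.39 in DAC at 5 µM (-0.55 ± 0.07, adjusted p = 3.6e-06), 9.28 and 9.30 in G668684 at 7 µM (-0.64 ± 0.07, 5.1e-07) and 9.35 and 9.43 in the higher dose of G669071 (-0.54 ± 0.07, 5.1e-06). In G668684 at 150 nM its call (-0.23, 0.023) was lost without DMSO replicate 2 (0.051) or 3 (0.05) or without treated replicate 1 (0.29). ALDH18A1, which makes pyrroline-5-carboxylate from glutamate, was lower by 0.22 to 0.39 in the same 3 compounds at both doses. For ALDH18A1 the calls in DAC at 120 nM and the lower dose of G669071 were lost without 1 treated array (adjusted p = 0.21 and 0.086), and at the higher doses of DAC and G668684 the calls ended with cross-binding probe sets removed (-0.11 and -0.14; 0.42 and 0.32). PCK2, the mitochondrial phosphoenolpyruvate carboxykinase, was lower by 0.32, 0.32 and 0.36 at the higher doses of the 3 compounds, and its calls in DAC and G669071 were lost without replicate 1 (0.069 and 0.11).

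Among the transporters, SLC7A11 had the largest differences. This cystine-glutamate exchanger (xCT) supplies cysteine for glutathione. DMSO arrays measured 10.12, 10.15, 10.45 and 10.29, against 8.98 and 8.96 in DAC at 5 µM (-1.28 ± 0.09, adjusted p = 4.4e-10), 8.86 and 9.04 in G668684 at 7 µM (-1.30 ± 0.09, 3.6e-10) and 9.13 and 9.37 in the higher dose of G669071 (-1.003 ± 0.085, 1.7e-08). Levels in Aza at 1500 nM were 9.28 on both arrays (-0.97 ± 0.09) and G669043 at 1500 nM 9.71 and 9.86 (-0.47 ± 0.09, 0.0013). On this brightest probe set all treated arrays named here lay below all DMSO arrays. Among the 3 SLC7A11 probe sets the highest difference was -0.058 in DAC at 5 µM, -0.183 in G668684 at 7 µM and 0.208 in the higher dose of G669071. It was -0.202 in Aza at 1500 nM and -0.048 in G669043 at 1500 nM. In G668684 at 150 nM the SLC7A11 probe sets ran from -0.643 to 0.452. The smaller falls in DAC at 120 nM (-0.39) and the lower dose of G669071 (-0.40) ended when its 3 probe sets were averaged (adjusted p = 0.18 and 0.13).

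SLC38A2, a sodium-coupled neutral amino acid transporter that adapts to amino acid shortage, was lower in 8 groups and lowest in Aza at 1500 nM. There it measured 12.46 and 12.50, against 13.05, 13.09, 13.39 and 13.37 in DMSO (-0.75 ± 0.09, adjusted p = 5.7e-06). DAC at 5 µM gave 12.87 on both arrays (-0.36 ± 0.09, 0.0031). Of its calls, 5 were lost without some single array: DAC at 120 nM (0.25 without replicate 1), both doses of G669071, G668684 at 150 nM (0.083 without replicate 1) and G669043 at 1500 nM. In the higher dose of G669071 this was replicate 2 (0.094). In the lower dose it was DMSO replicate 4 (0.051) or either treated array (0.11 and 0.13), and in G669043 either treated array (0.12 and 0.056). Against DMSO replicates 1 and 2 alone the SLC38A2 calls ended in both doses of G669071 (-0.16 in both, 0.095 and 0.16), DAC at 120 nM (-0.19, 0.057) and G668684 at 150 nM (-0.20, 0.051).

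The large neutral amino acid exchanger is a pair of SLC7A5 and SLC3A2. SLC7A5 was lower in DAC at 5 µM, at 10.83 and 10.90 against 11.10 to 11.29 in DMSO (-0.35 ± 0.09, adjusted p = 0.003), and in G668684 at 7 µM (-0.40 ± 0.09, 0.00091); the DAC call was lost without replicate 1 (0.05). SLC3A2, its heavy chain, measured 10.19, 10.27, 10.29 and 10.10 in DMSO. It was higher in Aza at 1500 nM, at 10.53 and 10.44 (0.27 ± 0.07, 0.0063), and lower by 0.25, 0.23 and 0.21 at the higher doses of DAC, G669071 and G668684. The SLC3A2 calls were lost without replicate 1 of each treated group (adjusted p = 0.11, 0.089, 0.10 and 0.15) and, in G668684, also without replicate 2 (0.06). SLC7A1, the cationic amino acid transporter, was lower by 0.22 to 0.42 in DAC, G669071 and G668684 at both doses on its brightest probe set, and other probe sets did not share this: the calls ended in all 6 groups when all were averaged. SLC1A5, a glutamine transporter, passed only in DAC at 5 µM (-0.24, 0.012; 0.16 without replicate 2), and SLC1A4 nowhere.

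Of the 10 measured genes that charge or export tRNA, 3 were lower and 1 higher in DAC at 5 µM (14.2% and 18.0% of all genes, so the higher count lies below that share). AARS1, the alanyl-tRNA synthetase, measured 11.17, 11.28, 11.05 and 11.04 in DMSO. It fell to 10.14 and 10.18 in DAC at 5 µM (-0.98 ± 0.07, adjusted p = 2.8e-09), 10.24 and 10.28 in G668684 at 7 µM (-0.88 ± 0.07, 1.3e-08), 10.29 and 10.39 in the higher dose of G669071 (-0.80 ± 0.07, 5.4e-08), and 10.73 and 10.62 in Aza at 1500 nM (-0.46 ± 0.07, 0.00018). No treated array of these groups overlapped DMSO, and no AARS1 call against DMSO was lost without an array. GARS1, the glycyl-tRNA synthetase, fell from 12.24 to 12.33 in DMSO to 11.68 and 11.73 in DAC at 5 µM (-0.57 ± 0.06, 1.2e-07) and 11.68 and 11.71 in G668684 at 7 µM (-0.58 ± 0.06, 9.7e-08). Its falls of 0.18 in Aza at 1500 nM and G668684 at 150 nM and of 0.20 in G669043 at 1500 nM were lost in turn without 3 or 4 single arrays each.

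YARS1, the tyrosyl-tRNA synthetase, measured 11.71, 11.74, 11.94 and 11.75 in DMSO and 10.82 and 10.83 in DAC at 5 µM (-0.96 ± 0.06, adjusted p = 2.1e-10). These values come from a probe set that can bind several transcripts. Without such probe sets the YARS1 difference in DAC at 5 µM was -0.21 (0.16), so its fall is not settled. DDIT4, ASNS, PYCR1, GARS1, SLC7A5, SLC3A2 and NUPR1 rest on 1 such probe set each, so this check could not be made for them. SARS1, the seryl-tRNA synthetase, rose in 5 groups: DAC at 5 µM gave 11.49 and 11.52 against 11.22, 11.27, 11.27 and 11.07 in DMSO (0.30 ± 0.07, 0.0013), and G668684 at 7 µM gave 11.49 and 11.59 (0.33 ± 0.07, 0.00044). In DAC at 120 nM and G668684 at 150 nM the sign of SARS1 turned when its probe sets were averaged (-0.03 in both). NARS1, the asparaginyl-tRNA synthetase, reached the threshold in Aza at 1500 nM alone (0.21 ± 0.07, 0.05), with 12.61 and 12.57 against 12.23 to 12.51 in DMSO. The NARS1 call was lost without DMSO replicate 1 (0.10) or 2 (0.11) or either treated array (0.25 and 0.17), and against DMSO replicates 3 and 4 alone the difference was 0.09 (0.29). CARS1, the cysteinyl-tRNA synthetase, was lower in Aza at 1500 nM (-0.18 ± 0.05, 0.018), a call lost without either treated array (0.078 and 0.17) and turned to 0.05 when probe sets were averaged. WARS1, EPRS1, IARS1 and the tRNA exporter XPOT passed nowhere against all 4 DMSO arrays. XPOT spanned 10.21 to 11.08 in DMSO and against replicates 3 and 4 alone was lower in 6 groups (-0.88 to -0.66). Against the same pair IARS1 was lower in 6 groups (-0.34 to -0.245) and EPRS1 in 2 (-0.32 to -0.265). Against DMSO replicates 1 and 2 alone IARS1 was higher in 2 groups (0.28 to 0.51) and XPOT in 1 (0.79).

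**Figure D3:**
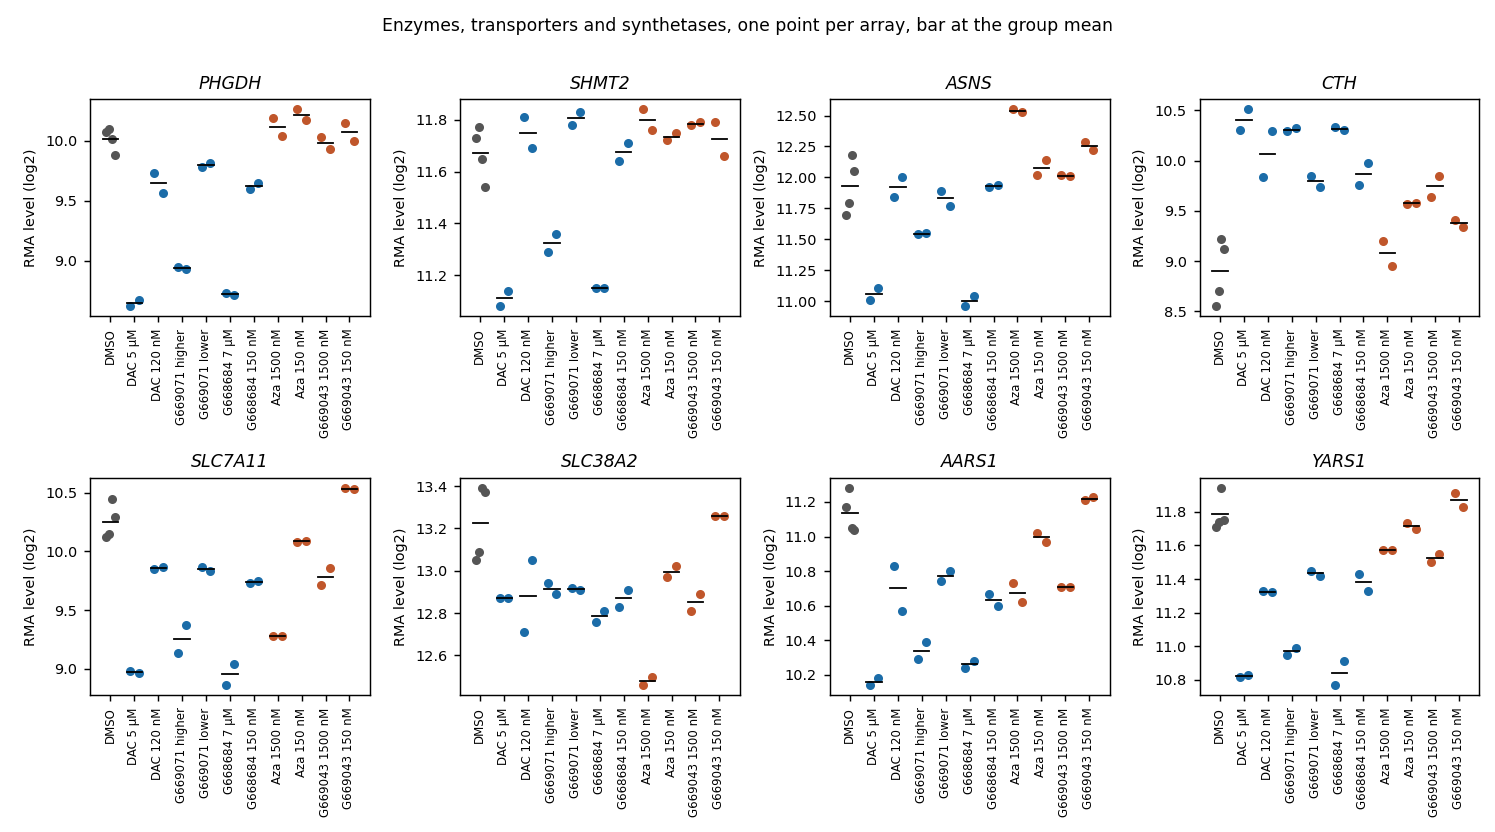
RMA log2 level (vertical axis) of 8 enzymes, transporters and synthetases on each array, by group (horizontal axis), with colours and bars as in the plot of regulators. PHGDH and SHMT2 are lowest in the higher doses of DAC, G669071 and G668684, ASNS is highest in Aza at 1500 nM (12.55 and 12.53), and CTH stands above 10.2 in the higher doses of the blue groups.

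The secreted factors VEGFA, the angiogenic growth factor, and STC2, a stress-induced glycoprotein, were each lower in 8 groups. VEGFA measured 8.49 and 8.65 on DMSO replicates 1 and 2 and 9.27 and 9.08 on replicates 3 and 4. Levels in Aza at 1500 nM were 8.06 and 7.97 (-0.86 ± 0.15, adjusted p = 0.00029) and the higher dose of G669071 8.05 and 8.16 (-0.77 ± 0.15, 0.00033), below both DMSO pairs. All 4 VEGFA probe sets were lower in these groups, but the smallest differences were -0.015 and -0.05. In the lower doses of DAC, G669071 and G668684 the VEGFA falls of 0.42 to 0.44 shrank to between 0.12 and 0.14 against DMSO replicates 1 and 2 alone (adjusted p = 0.36 to 0.39), and that in G669043 at 1500 nM (-0.51 ± 0.15) to -0.21 (0.12). STC2 fell from 8.69, 8.79, 8.96 and 8.61 in DMSO to 8.12 on both arrays of DAC at 5 µM (-0.64 ± 0.12, 0.00016). Its calls in DAC at 120 nM, the lower dose of G669071, Aza at 1500 nM and G669043 at 1500 nM were each lost without some single array. VLDLR, a lipoprotein receptor, lay between 4.59 and 5.22 on all arrays.

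Within compounds, the higher dose gave mostly lower levels. DAC at 5 µM had 1 member above and 14 below DAC at 120 nM (8.73% and 5.94% of all genes), the higher dose of G669071 2 above and 10 below its lower dose (5.65% and 3.71%), and G668684 at 7 µM 1 above and 11 below 150 nM (7.78% and 3.77%). For Aza, 1500 nM had 1 above and 7 below 150 nM (2.41% and 3.38%), and G669043 1 above and 13 below (1.69% and 2.18%). In these comparisons ATF4 was lower at the higher dose by 0.85 ± 0.09 in DAC (adjusted p = 3.5e-06), 0.75 ± 0.09 in G668684 (1.6e-05), 0.64 ± 0.09 in G669043 (0.00026), 0.56 ± 0.09 in Aza (0.00079) and 0.40 ± 0.09 in G669071 (0.0077). The last was lost without replicate 1 of its higher dose or replicate 2 of its lower dose (0.11 in both cases).

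PHGDH dropped with dose in the 3 compounds that lowered it, by 1.00 ± 0.09 in DAC (adjusted p = 2.3e-07), 0.91 ± 0.09 in G668684 (8.3e-07) and 0.86 ± 0.09 in G669071 (1.9e-06), and its difference was -0.10 in both Aza and G669043. SLC7A11 dropped with dose in all 5, by 0.60 to 0.89 on its brightest probe set. All 3 of its probe sets were lower at the higher dose, but the smallest difference was -0.07 in G669071 and -0.08 in G669043. The single member higher at the higher dose differed by compound: ATF3 in DAC (0.64 ± 0.13, 0.0026) and G668684 (0.93 ± 0.13, 0.0001), ASNS in Aza (0.46 ± 0.11, 0.014) and ATF5 in G669043 (1.04 ± 0.10, 1.8e-06), with ATF3 (1.38 ± 0.13, 1.6e-06) and DDIT3 (1.03 ± 0.13, 4.2e-05) in G669071. The ATF3 call in DAC was lost without replicate 2 of DAC at 5 µM (0.063), and the ASNS call without any 1 of its 4 arrays (0.055 to 0.17). The 8 calls of Aza became 4 without its 1500 nM replicate 2 or its 150 nM replicate 1, and 3 without its 150 nM replicate 2. In G669043 14 calls became 5 without 1500 nM replicate 1 or 150 nM replicate 1, 7 without 1500 nM replicate 2 and 8 without 150 nM replicate 2.

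Doses of Aza and G669043 match, which gives 2 pairs of groups. All 42 genes were compared in the 2 pairs, with p adjusted over all genes tested in each pair. At 1500 nM 2 members were higher and 1 lower in G669043 than in Aza (1.47% and 0.659% of all genes). DDIT4 stood at 10.28 and 10.32 in G669043 and 9.78 and 9.57 in Aza (0.63 ± 0.13, adjusted p = 0.014), SLC7A11 at 9.71 and 9.86 against 9.28 on both arrays (0.51 ± 0.10, 0.011), and ASNS at 12.02 and 12.01 against 12.55 and 12.53 (-0.53 ± 0.11, 0.014). The arrays of the groups did not overlap for these genes. None of the 3 calls survived every single left-out array: 1 remained without Aza replicate 1 or G669043 replicate 1, and 0 without Aza replicate 2 or G669043 replicate 2, where the lowest adjusted p was 0.11.

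At 150 nM 1 member was higher in G669043 and 0 were lower (0.0111% and 0.0554% of all genes). DDIT4 measured 11.41 and 11.19 in G669043 and 10.47 and 10.48 in Aza (0.83 ± 0.13, adjusted p = 0.0086). Its call was lost without either Aza array or without G669043 replicate 1 (0.16, 0.18 and 0.19). With unadjusted p under 0.05 there were 14 higher members and 1 lower at 150 nM, and 9 higher and 4 lower at 1500 nM. The share of all genes with an unadjusted p under 0.05 was not counted, so these counts do not set the members apart from other genes. For ATF4 the difference at 1500 nM was 0.20 with a 95% interval of 0.01 to 0.39, and at 150 nM 0.28 with an interval of 0.09 to 0.47, neither passing after adjustment (0.29 and 0.39). For PHGDH the intervals were -0.31 to 0.04 and -0.32 to 0.04. CTH, which did not pass at 1500 nM (0.67, adjusted p = 0.051), had an interval of 0.31 to 1.04. The intervals do not show that the compounds act alike.

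Aza at 1500 nM and DAC at 5 µM differ in dose, so this comparison is of the treatments as given, and DMSO arrays enter it only through the shared estimate of the spread. In it 16 members were higher in Aza and 4 lower (9.33% and 14.9% of all genes); 11 and 4 of these calls were kept whichever array was left out. ASNS was 1.48 ± 0.11 higher in Aza (12.55 and 12.53 against 11.01 and 11.11; 2.79-fold; adjusted p = 6.8e-09) and PHGDH 1.47 ± 0.09 (10.19 and 10.04 against 8.62 and 8.67; 3.4e-10). SHMT2 was higher by 0.69 ± 0.07 (4.8e-07), SLC7A5 by 0.57 ± 0.10 (0.00022), SLC3A2 by 0.53 ± 0.08 (3.3e-05), AARS1 by 0.52 ± 0.09 (0.00013) and PYCR1 by 0.51 ± 0.08 (0.00011). Lower in Aza were ATF3 at -1.44 ± 0.13 (1.4e-07), CTH at -1.33 ± 0.18 (1e-05), DDIT3 at -1.14 ± 0.13 (2.9e-06) and SLC38A2 at -0.39 ± 0.10 (0.0064). DDIT4 differed by 0.03 ± 0.13 (0.91), with a 95% interval of -0.24 to 0.29. ATF4 was 0.29 ± 0.09 higher in Aza (0.024), a call lost without either Aza array or without DAC replicate 1 (0.14, 0.057 and 0.19).

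**Figure D4:**
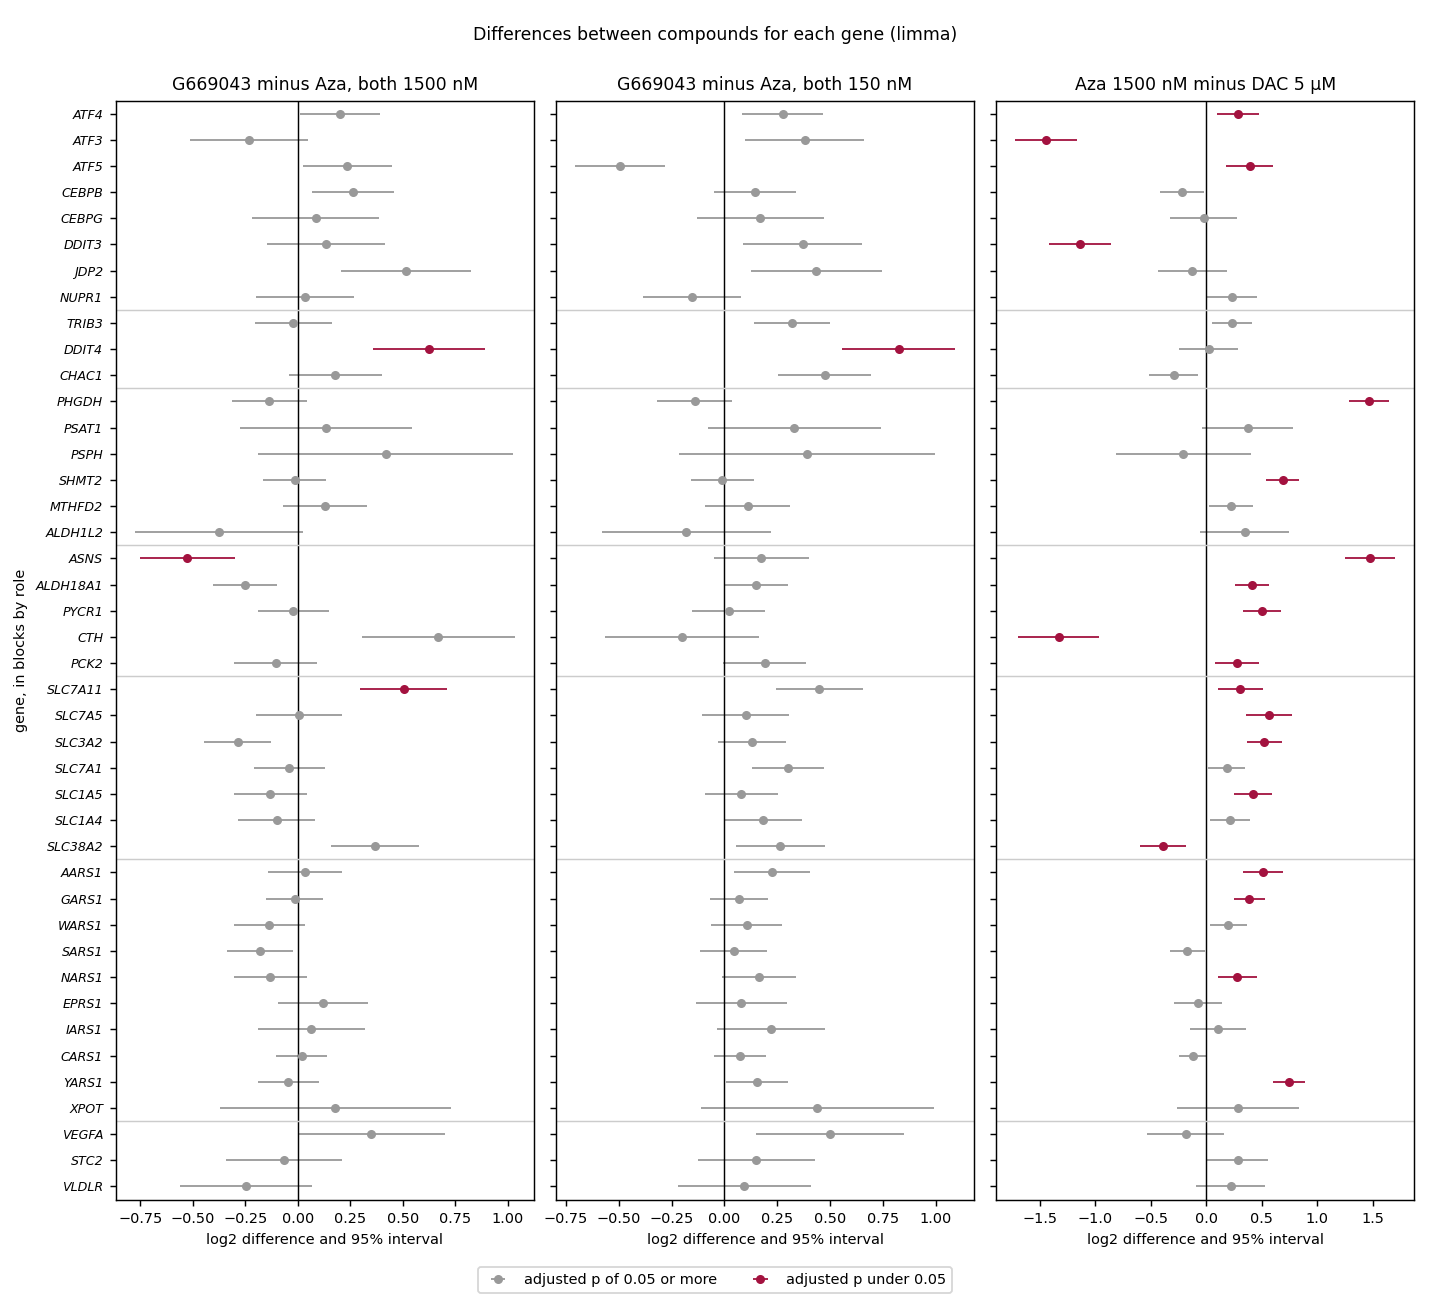
Log2 difference with its 95% interval (horizontal axes) for the 42 genes (vertical axis, in blocks by role), for G669043 minus Aza at 1500 nM (left), at 150 nM (middle) and Aza at 1500 nM minus DAC at 5 µM (right, doses differ); red marks a limma adjusted p under 0.05. There are 3, 1 and 20 red genes in the panels, with DDIT4 red in both matched pairs and ASNS and PHGDH farthest to the right in the last.

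Genes of neighbouring pathways, taken from lists written from general knowledge, did not all move with the members. Of 24 genes of the ATF6 and XBP1 arms of the unfolded protein response, 9 were higher and 2 lower in DAC at 5 µM (18.0% and 14.2% of all genes), 12 and 1 in the higher dose of G669071 (15.8% and 13.7%), and 1 and 6 in Aza at 1500 nM (8.13% and 9.18%). DNAJB9, an endoplasmic reticulum chaperone cofactor, was 1.59 ± 0.09 higher in DAC at 5 µM (adjusted p = 6.3e-11), and HSP90B1, the chaperone GRP94, was -0.84 ± 0.11 in Aza at 1500 nM (2e-05). Between Aza at 1500 nM and DAC at 5 µM, 14 of the 24 were lower in Aza and 0 higher (14.9% and 9.33% of all genes). Of 20 genes for eIF2 kinases, phosphatase subunits and the eIF2 and eIF2B complexes, 5 were higher and 5 lower in DAC at 5 µM and 5 and 3 in Aza at 1500 nM, to be read against the same shares of all genes. EIF2B2, a subunit of the eIF2 exchange factor, was higher by 0.66 ± 0.07 (1.2e-07) and 0.55 ± 0.07 (8.6e-06), and EIF2AK1, the heme-regulated eIF2 kinase, was lower, at -0.34 ± 0.07 (0.0008) and -0.47 ± 0.07 (8.7e-05).

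Of 15 mitochondrial tRNA synthetases tested, 8 were lower and 2 higher in DAC at 5 µM (14.2% and 18.0% of all genes), 9 and 1 in DAC at 120 nM (9.9% and 12.5%), and 2 and 3 in Aza at 1500 nM (9.18% and 8.13%). HARS2, for histidine, was -0.75 ± 0.08 in DAC at 5 µM (adjusted p = 1.5e-07), where MARS2, for methionine, was 0.54 ± 0.08 (1.5e-05). WARS2, for tryptophan, was 0.68 ± 0.10 in Aza at 1500 nM (4.2e-05). Of 9 cytosolic synthetases or their scaffold proteins outside the member list, 3 were higher and 2 lower in DAC at 5 µM (18.0% and 14.2% of all genes). In Aza at 1500 nM 5 were higher and 1 lower (8.13% and 9.18%). HARS1 was 0.33 ± 0.06 (0.0003) in DAC at 5 µM, where the lowest difference in this list was -0.555.

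In the folate and methionine cycle 4 of 16 genes were lower and 2 higher in DAC at 5 µM (14.2% and 18.0% of all genes, so the higher count lies below that share), among them TYMS, the thymidylate synthase, at -0.78 ± 0.05 (adjusted p = 7.6e-10) and GLDC, which cleaves glycine, at 0.98 ± 0.12 (1.2e-06). Of 20 further ATF4 targets 8 were higher and 3 lower in DAC at 5 µM (18.0% and 14.2% of all genes), and 5 and 0 in Aza at 1500 nM (8.13% and 9.18%). The autophagy genes MAP1LC3B and GABARAPL1 were higher in DAC at 5 µM by 1.56 ± 0.07 (1.3e-12) and 1.19 ± 0.15 (3.3e-06). The stress cytokine GDF15 was higher there by 1.55 ± 0.09 (7.4e-11) but only 0.16 (0.31) with cross-binding probe sets removed. Of 11 genes listed under glutathione and cystine, a list that also held the NRF2 target NQO1, 3 were lower and 1 higher in DAC at 5 µM (14.2% and 18.0% of all genes). In that group GGCT, the gamma-glutamylcyclotransferase, stood at -0.88 ± 0.08 (1.6e-08) and NQO1 at -0.66 ± 0.05 (8.1e-10). In Aza at 1500 nM 5 were higher and 0 lower (8.13% and 9.18% of all genes), with NQO1 at 0.29 ± 0.05 (0.00014).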

How the data were processed

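Transcript levels were measured in HCT116 cells on 24 Affymetrix arrays. The deposited values are linear intensity values, which the authors computed by RMA; the submitters' processing notes name Expression Console 1.1. Their log2 was taken here. Precision is set by how many arrays there are: the typical (median) 95% interval was ± 0.207 against DMSO and ± 0.239 between treated groups. The table holds 54675 probe sets, of which 41091 carry 1 gene symbol, 1801 several and 11721 none, beside 62 controls; 41037 matched a RefSeq gene table by gene number. Their genome build: not given in the sources used here. A probe set was kept where 2 or more arrays reached log2 5, and the one with the highest mean stood for its gene, leaving 18055 genes. Of the array pairs, 0 were identical.

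A model of group means over the 24 arrays was estimated by limma 3.58.1 under R 4.3.3 (lmFit, then eBayes with trend; 13 residual and 6.139 prior degrees of freedom), 2-sided, with Benjamini-Hochberg adjustment over all genes and a threshold of 0.05, in 18 contrasts. The fit was tested on simulated data. Errors of differences are SEs. Alternatives were no filter, the mean of a gene's probe sets, no probe sets named _s_at or _x_at (which can bind several transcripts), repeated quantile normalization, centring on array medians, either DMSO pair alone, a replicate block, and each array left out.

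The text accounts for every member and gives values, by role, for ATF4 and the genes called in a contrast. It names up to 3 called genes of each other list, not always those with the largest difference. Sequence is printed for the 6 genes with a promoter match and the largest difference in Aza at 1500 nM. Members and lists were chosen with earlier results of these data known. In 135 of 262 member calls the gene had more than 1 probe set, and in 103 all went the same way. Tables and figures used Python 3.11.15, pandas 2.3.3 and matplotlib 3.10.9.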

Additional observations from a re-analysis of the deposited data

How the results depend on the processing

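For the 262 single-gene calls, 3235 alternative values kept direction and threshold in 2882 cases, kept only the direction in 343 and turned in 10. Those that turned were SARS1 in DAC at 120 nM (-0.031) and G668684 at 150 nM (-0.034), SLC7A1 in DAC at 120 nM (0.058) and CARS1 in Aza at 1500 nM (0.049) with averaged probe sets, and, without _s_at and _x_at probe sets, SLC7A1 in DAC at 120 nM (0.122), the lower dose of G669071 (0.112), G668684 at 7 µM (0.023) and G669043 between doses (0.300), and YARS1 in DAC at 120 nM (0.013) and G668684 at 150 nM (0.048). In 91 of the 262 calls at least 1 left-out array ended the call. Of 220 alternative counts of called members 168 stayed within 1.5 times the count reported. Without _s_at and _x_at probe sets, which leaves 28 members, the counts were 17, 11, 17, 7, 16, 11, 10, 3 and 8 against DMSO for DAC (higher dose, then lower), G669071, G668684, Aza and G669043 at 1500 nM, then 8, 7, 6, 5 and 8 between doses in the order DAC, G669071, G668684, Aza, G669043, then 1 and 0 for G669043 against Aza at 1500 and 150 nM and 11 for Aza against DAC. Against DMSO replicates 3 and 4 alone the lower dose of G669071 gave 25 and Aza at 150 nM 13, and against replicates 1 and 2 alone G669043 at 150 nM gave 14. Repeated quantile normalization gave 8 in Aza at 150 nM (2 higher, 6 lower), 19 between the doses of G668684, 6 for G669043 against Aza at 1500 nM (5 higher, 1 lower), and 4 higher and 7 lower between the doses of Aza; centring gave 5 (2 higher, 3 lower) and 3 higher and 7 lower in the last 2, and averaged probe sets 6 for G669043 against Aza at 1500 nM. Leaving out 1 array gave 8 to 15 in the lower dose of G669071, 13 to 22 in G668684 at 150 nM, 13 to 19 in Aza at 1500 nM, 3 to 7 in Aza at 150 nM, 8 to 17 in G669043 at 1500 nM, 0 to 6 in G669043 at 150 nM, 3 to 6 between the doses of Aza, 5 to 8 between those of G669043, and 0 to 1 for G669043 against Aza at either dose. The cause of these shifts was not tested.

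Whether replicate numbers pair the samples is not settled. Of 110 listed pairs of arrays with the same number, 43 had deviations from the group mean that correlated above 0.1 (range -0.59 to 0.62). With 2 arrays in a treated group the deviations mirror each other, so any 2 treated groups give the same correlation for both numbers. It was 0.61 for DAC at 120 nM with G668684 at 150 nM and -0.39 for G668684 at 7 µM with Aza at 1500 nM. For DMSO with DAC at 120 nM it was 0.62 in replicate 1 and -0.59 in replicate 2. Replicate numbers above 2 occur only in DMSO, so under a replicate block those arrays add nothing to the contrasts with DMSO. The block therefore gave these contrasts the same differences as DMSO replicates 1 and 2 alone and is no separate check on them. In G669043 at 150 nM both settings gave 0.51 for ASNS, 0.75 for CTH and 0.79 for XPOT. With the replicate block the counts were 15 in G669043 at 150 nM, 22 between the doses of G668684, 13 between those of Aza, and 10 and 7 for G669043 against Aza at 1500 and 150 nM; 22 of the 262 calls were not made under the block.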

Other observations

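Among the measured members with a promoter window, 14 held the composite site core and 20 did not. In DAC at 5 µM 8 of the 14 were lower and 1 higher, with a median of -0.25, and 11 of the 20 were lower and 4 higher, with a median of -0.34. In Aza at 1500 nM 5 of the 14 were lower and 3 higher, and 7 of the 20 lower and 1 higher. PSPH, SHMT2, SLC7A11, ALDH1L2, PYCR1, NUPR1, YARS1 and VEGFA had no window. Of all genes, 14.2% were lower and 18.0% higher in DAC at 5 µM, and 9.18% and 8.13% in Aza at 1500 nM. These counts describe the members and were not tested.

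In G669043 at 150 nM, where no member passed against the 4 DMSO arrays, the members' median was 0.09 and that of all genes 0.01. CTH measured 9.41 and 9.34, above all 4 DMSO arrays (8.55 to 9.22), as did SLC7A11 with 10.54 and 10.53 (10.12 to 10.45) and ASNS with 12.29 and 12.22 (11.70 to 12.18). XPOT with 11.01 and 11.11, PSAT1 with 12.82 and 12.78 and PSPH with 10.18 and 10.26 lay near DMSO replicates 3 and 4 and above replicates 1 and 2. These genes were chosen after their values were seen.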
